A study of Rattus norvegicus with 21 samples.

Results

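Glutamate receptor subunits were followed through 21 single rat hippocampal neurons. The set holds 9 genes, chosen by symbol from 16245 symbols in the deposited expression table, and each of the 9 had 1 row there. They are the AMPA receptor subunits Gria1, Gria2, Gria3 and Gria4, the NMDA receptor subunits Grin1, Grin2a and Grin2b, the kainate receptor subunit Grik1 and the metabotropic receptor Grm5. The donors were VGAT-Venus transgenic Wistar embryos (E18), in which Venus marks GABAergic cells, and every neuron was patched, recorded and aspirated at 17 days in vitro (17 DIV). Cultures with glia gave 5 pyramidal and 6 GABAergic neurons. Another 5 GABAergic neurons came from purified cultures, given the antimitotic agents FdU and U at 5 µM at 24 h after dissection, with removal after 36 h. The last 5 GABAergic neurons came from cultures purified in the same way and given oligodendrocyte conditioned medium (OCM) from day 3 in vitro. That medium came from oligodendrocytes of Wistar cortices at postnatal day 2, grown for 7 to 15 days. Cultures that kept glia received no such agents, whose action cannot be told apart from the loss of glia. No label ties a neuron to an animal or a dish. Each group was therefore treated as 1 sample: an SD or range here is between cells, and no p-value is given.

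AMPA receptors carry most of the fast excitatory current in the hippocampus and are built from combinations of the GluA subunits, which the Gria genes encode. The edited GluA2 subunit makes the channel nearly impermeable to calcium, whereas many interneurons are known for receptors that are poor in GluA2 and rich in GluA4. NMDA receptors need the GluN1 subunit, from Grin1, together with GluN2 subunits such as those from Grin2a and Grin2b. Kainate receptors modulate release and excitability, and Grik1 encodes a subunit long described in hippocampal interneurons. Grm5 encodes a G-protein-coupled receptor at the rim of the synapse.

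A cell held 1817671 to 25160911 recovered reads and 2540 to 8652 genes above 0. The labels were checked against identity genes. Gad1, which makes GABA, had 0 reads in all pyramidal cells and was above 0 in 15 of 16 GABAergic cells, while Slc17a7, the vesicular glutamate transporter, was above 0 in 4 of 5 pyramidal cells and in no GABAergic cell. Gad2 was at 898 or more in every GABAergic cell, but also at 924 and 714 in pyramidal cells 1 and 2. The exception to Gad1 was purified cell 4, which had Gad2 at 14087 and Slc32a1, the vesicular GABA transporter, at 390. The library labelled pyramidal cell 3 stood apart, with Slc17a7 at 0. Summed levels there were 324915 over 9 oligodendrocyte genes, 64524 over 8 astrocyte genes and 23414 over 8 microglial genes. Neurod2, another gene of glutamatergic neurons, was nonetheless at 1770 in that library. Pyramidal cell 4 had an oligodendrocyte sum of 103570 along with Slc17a7 at 7887. In the other 3 pyramidal cells the oligodendrocyte sum was 0, 1604 and 0. Summed over 12 interneuron subtype genes, pyramidal cell 4 was at 6415, with Npy at 3712. Every other pyramidal cell was at 201 or less on that list. Some values for pyramidal neurons are therefore also given without cell 3, or without cells 3 and 4, where so stated. All other pyramidal values include them. Here and below, a level is the authors' DESeq2-normalized count, which is not corrected for gene length, so levels are compared between cells and not between genes.

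The number of subunits found per cell differed between groups (plot of levels by cell). Of the 9 subunits, 5 to 9 were above 0 in a GABAergic neuron with glia, 3 to 5 in a purified one, 4 to 7 in one given OCM and 0 to 3 in a pyramidal one. The library with none was pyramidal cell 3; the other 4 pyramidal cells had 3 each. Purified neurons overlapped glia-cultured ones at a single value, 5 subunits. Together the 9 subunits took 0.0880 to 0.223% of all normalized counts in glia-cultured GABAergic cells, 0.0376 to 0.102% in purified cells, 0.0722 to 0.165% in OCM-treated cells and 0 to 0.0863% in pyramidal cells.

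**Figure D1:**
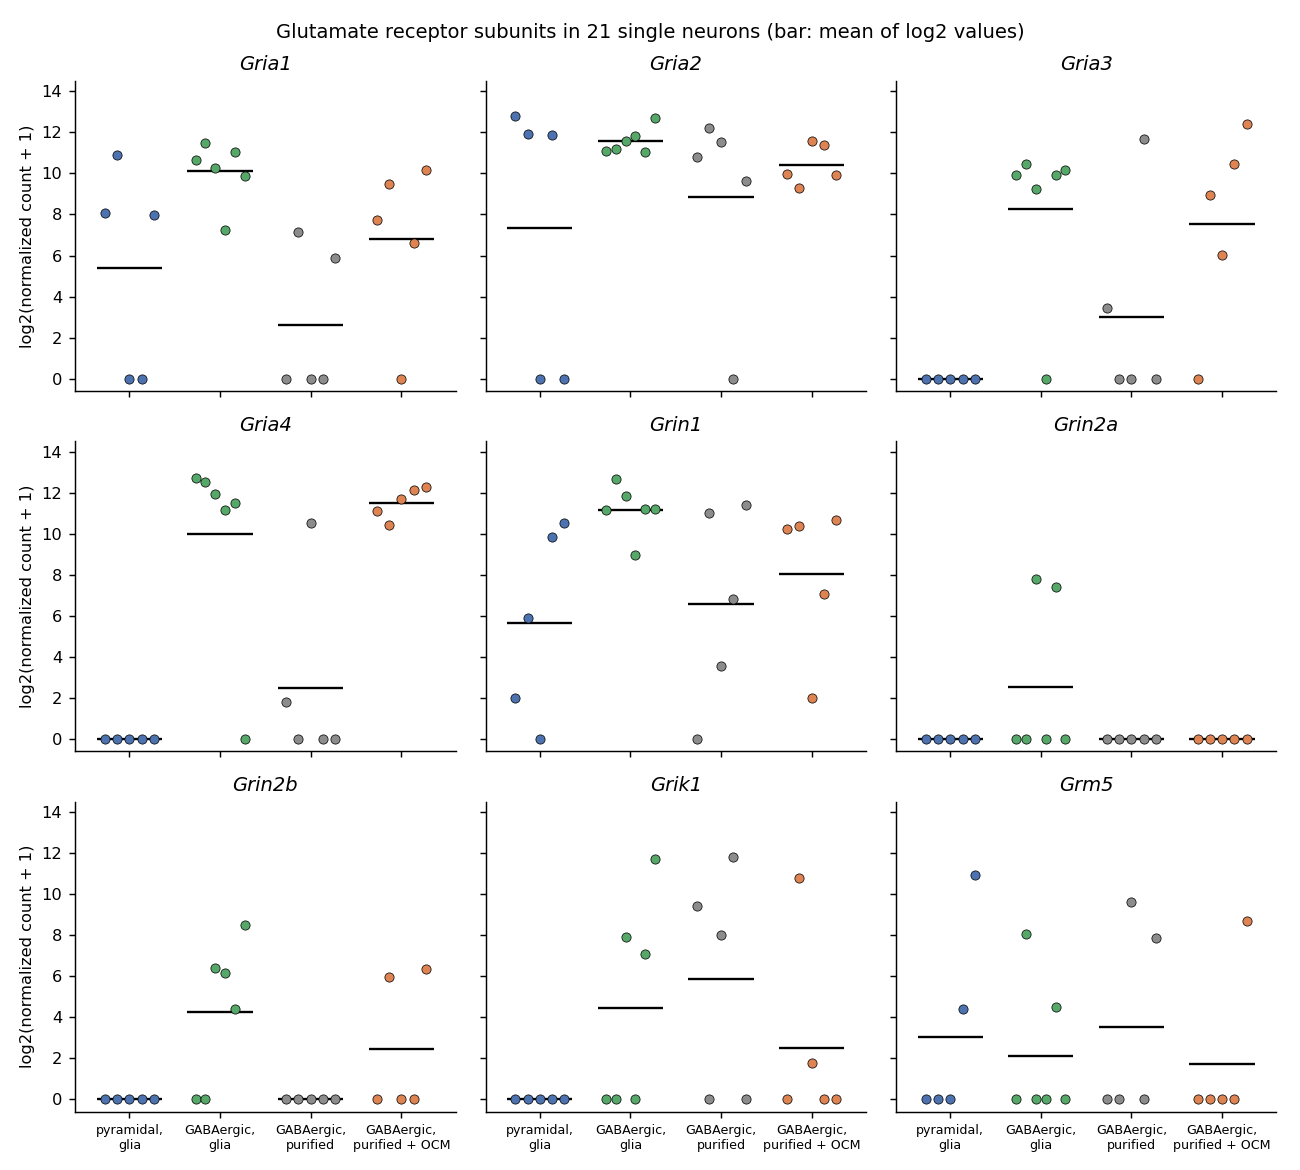
Level of each of the 9 subunits on the log2(normalized count + 1) scale (y axis) in every cell of the 4 groups (x axis); each point is 1 cell and each bar the mean of the log2 values. Gria4 is at 0 in all 5 pyramidal cells and above 10 on this scale in all 5 OCM-treated cells.

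Cells with more subunits were also cells with more genes of any kind. Over the 21 cells, which differ in depth and group, the number of subunits above 0 and the number of genes above 0 had a Pearson r of 0.72 and a Spearman rho of 0.64. After each cell was thinned to 1817671 reads these became 0.75 and 0.65. Thinning removed Grin1 from pyramidal cell 1 and from OCM-treated cell 3, and no other subunit from any cell. Thinned cells had 3613 to 8188 genes in the glia-cultured GABAergic group, 2538 to 3799 in the purified, 3754 to 5681 in the OCM-treated and 2455 to 4992 in the pyramidal group. The part that this difference in detected genes has in the results below was not tested, so each comparison is read against all genes measured in it.

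**Figure D2:**
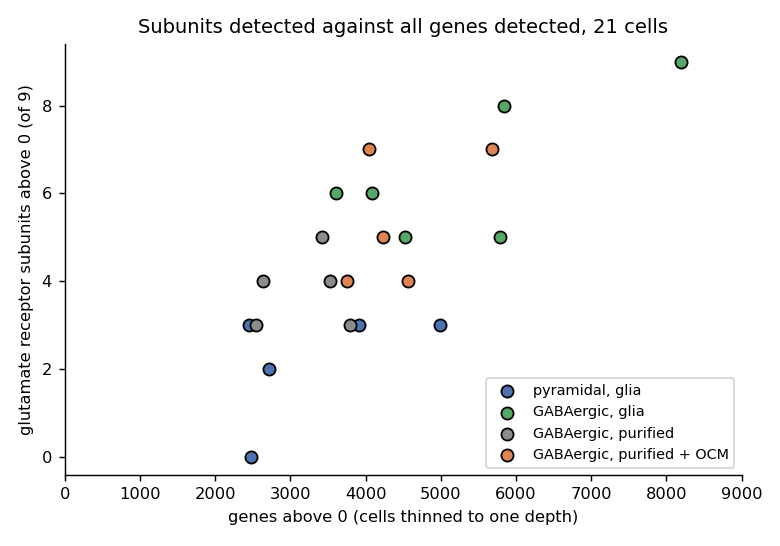
Number of the 9 subunits above 0 (y axis) against all genes above 0 (x axis) after thinning every cell to one depth; each point is 1 of 21 cells, coloured by group. The cell with all 9 subunits, a glia-cultured GABAergic neuron, also has the most genes (8188), and the library with 0 subunits is pyramidal cell 3.

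Gria4 encodes GluA4, the AMPA subunit with fast gating that is known from interneurons. The gene lies on chromosome 8, 1548146 to 2045817 in rn6. It had 0 reads in all 5 pyramidal cells. In GABAergic neurons with glia the lowest level was 0, in cell 6, the median 3377 and the highest 6684. Purified cells 1 to 5 were at 2.47, 0, 1489, 0 and 0, where 2.47 stands for 2 reads. OCM-treated cells 1 to 5 were at 2172, 1379, 3275, 4475 and 4972. All OCM-treated cells were thus high, all but 1 of the glia-cultured ones were, and in the purified group only cell 3 was, just above the lowest OCM-treated cell. Group means were 3601 (SD 2459, 6 cells) with glia, 298 (SD 665, 5 cells) purified and 3255 (SD 1511, 5 cells) with OCM.

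Sums of reads, which are not scaled for depth, showed the same order. Purified cells held 545 Gria4 reads in all (exact Poisson interval 500 to 593, 95%), 543 of them in cell 3. OCM-treated cells held 21831 (21542 to 22123). These intervals cover counting error only, not the spread between cells. Against the glia-cultured GABAergic group, the Gria4 mean was at least 1018-fold lower in pyramidal cells, taking 3 reads in the whole pyramidal group as the floor. This bound, too, covers counting error only.

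The promoter of Gria4 is shown because its transcript was read in 12 of 16 GABAergic cells and in no pyramidal cell, and that of Grin1 because it was found in 19 of 21 cells of both classes. RefSeq's promoter table (build GRCr8, which is not the build of the expression table) matched 4 of the 9 genes. Each sequence is the 250 bases before the annotated start, 5′ to 3′ on the gene's strand. Capitals mark TGCGC or its reverse complement GCGCA, the core of the site known for nuclear respiratory factor 1, the only motif searched, on both strands.
Gria4, chr8:10319882-10320131, minus strand: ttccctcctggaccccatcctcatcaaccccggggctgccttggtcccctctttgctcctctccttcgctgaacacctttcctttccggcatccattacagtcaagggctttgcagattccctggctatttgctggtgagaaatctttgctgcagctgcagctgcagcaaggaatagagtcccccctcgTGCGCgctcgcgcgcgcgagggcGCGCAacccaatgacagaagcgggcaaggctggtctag
Grin1, chr3:28528755-28529004, minus strand: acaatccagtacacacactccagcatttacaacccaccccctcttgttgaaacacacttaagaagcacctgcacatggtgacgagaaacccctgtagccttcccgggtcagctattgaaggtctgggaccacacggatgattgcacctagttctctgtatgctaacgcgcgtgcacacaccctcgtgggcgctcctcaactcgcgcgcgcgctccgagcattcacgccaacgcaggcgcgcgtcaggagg
Gria4 holds 2 matches and Grin1 holds 0, as do Grik1 and Grm5. Of 33469 rat promoters of this length, 25.03% hold at least 1 match and 12.1% at least 2. The matches describe these letters and say nothing about binding.

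Gria2 encodes the GluA2 subunit, whose edited form blocks calcium entry, and spans chromosome 2, 179584302 to 179704629. It was found in 18 of 21 cells. Pyramidal cells 1 to 5 were at 7097, 3910, 0, 3756 and 0. Cell 5 without Gria2 had Slc17a7 at 18423, so a pyramidal identity gene was read in that cell. GABAergic neurons with glia ran from 2103 through a median of 2708 to 6732. Purified cells were at 1789, 4675, 2999, 0 and 798, and OCM-treated cells at 1016, 627, 3050, 2685 and 963. All 4 groups overlapped: means were 2953 (SD 3007) in pyramidal cells, 3691 (SD 2903) there without cell 3, 3337 (SD 1765) in glia-cultured, 2052 (SD 1846) in purified and 1668 (SD 1112) in OCM-treated GABAergic cells.

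Gria1 encodes GluA1, a subunit known for its activity-dependent delivery to synapses, on chromosome 10, 42441716 to 42760200. Pyramidal cells 1 to 5 were at 266, 1905, 0, 0 and 254. Glia-cultured GABAergic cells ran from 151 through a median of 1417 to 2837. Purified cells were at 0, 140, 0, 0 and 57.8, all below the lowest glia-cultured cell. With OCM the cells were at 209, 705, 0, 97.2 and 1168, between the purified and glia-cultured ranges and overlapping both. Purified against glia-cultured cells was the only comparison in which any member lacked overlap, and Gria1 was that member. The margin was 140 against 151, and 1.51% of 6302 genes lacked overlap as lower there.

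Gria3 encodes GluA3 and lies on the X chromosome, 127561833 to 127829753. Like Gria4 it had 0 reads in every pyramidal cell. It was above 0 in 5 of 6 glia-cultured GABAergic cells, with a median of 960 and a highest level of 1408. Purified cells were at 9.89, 0, 0, 3294 and 0, and OCM-treated cells at 0, 486, 63.5, 1394 and 5461. Here the highest purified cell exceeded all glia-cultured ones, and the purified mean of 661 (SD 1472) rests on cell 4. That cell had no Gria1, Gria2 or Gria4 reads.

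How the 4 AMPA subunits shared their reads within a cell does not depend on that cell's scaling (plot of AMPA subunit make-up). These are shares of reads, not of molecules, since lengths were not corrected. Gria4 took 39.6 to 64.0% of these reads in the 5 OCM-treated cells and 35.5 to 58.7% in the 5 glia-cultured GABAergic cells that had it. It took 33.2% in purified cell 3, 0.137% in purified cell 1 (Wilson 95% interval 0.0377 to 0.499%) and 0 in the other 3. In those, purified cells 2, 4 and 5, 3550, 1915 and 918 reads fell on the other AMPA subunits, and the upper Wilson limits of the Gria4 share were 0.108, 0.200 and 0.417%. Reads amplified by PCR without molecular identifiers are not independent molecules, so these limits also cover counting error only and are too narrow for molecules. The Gria2 share was 99.3, 97.1, 66.8, 0 and 93.2% in purified cells 1 to 5 and 29.9, 19.6, 47.7, 31.0 and 7.67% in OCM-treated cells 1 to 5. Thus 4 of 5 purified cells lay above every OCM-treated cell and cell 4 lay below them all. Group means of the Gria2 share were 71.3% (SD 41.9) purified, 27.2% (SD 14.9) with OCM, 39.1% (SD 23.7, range 18.9 to 76.0) with glia, and 65.9% (SD 46.3) over the 4 pyramidal cells with AMPA subunit reads.

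**Figure D3:**
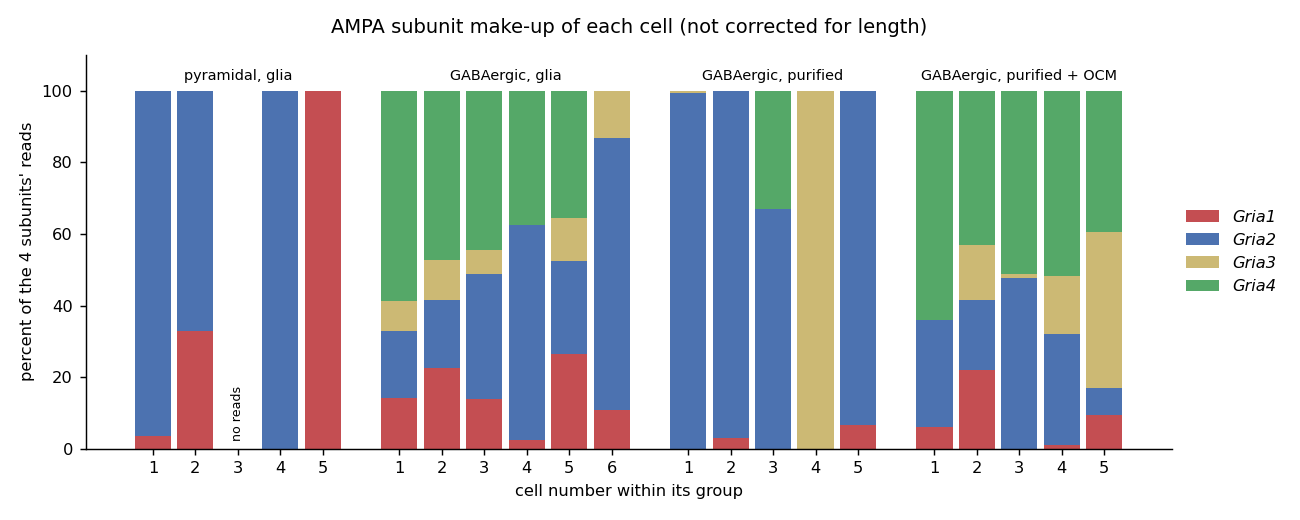
Share of Gria1 to Gria4 in their summed reads (y axis, percent, not corrected for length) in each cell (x axis, cells numbered within the 4 groups). Gria4 is present in all 5 OCM-treated cells, in 5 of 6 glia-cultured GABAergic cells, at 33.2% in purified cell 3 and in no pyramidal cell; pyramidal cell 3 had no reads of these genes.

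Grin1 encodes GluN1, the subunit every NMDA receptor needs, on chromosome 3, 2507745 to 2534663. It was above 0 in 19 of 21 cells, more than any other member. Pyramidal cells 1 to 5 were at 2.96, 59.0, 0, 909 and 1488, the first of these standing for 2 reads. In glia-cultured GABAergic cells it ran from 495 through a median of 2345 to 6580. Purified cells were at 0, 2038, 10.97, 114 and 2702, and OCM-treated cells at 1195, 1318, 3.06, 132 and 1611. Levels within the purified and OCM-treated groups thus spread from a few reads to the glia-cultured range, and all groups overlapped.

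The GluN2 partners were found in far fewer cells. Grin2a (chromosome 10, 5708378 to 6119897) was above 0 in 2 of 21 cells, glia-cultured GABAergic cells 3 and 5, at 218 and 168. Grin2b (chromosome 4, 169559949 to 169998448) was above 0 in 6 of 21 cells, all GABAergic and all with Grin1. It stood at 83.9, 71.4, 20.3 and 356 in glia-cultured cells 3 to 6 and at 61.6 and 80.6 in OCM-treated cells 2 and 5. No pyramidal or purified cell held a read of either gene, although 4 of 5 cells in each of these groups held Grin1. In 13 of 21 cells Grin1 was thus above 0 without Grin2a or Grin2b. Of the 4 other NMDA receptor genes, Grin2c had 0 reads in all cells and Grin2d at most 6 reads in a cell. Grin3a was above 0 in OCM-treated cells 4 and 5 alone, at 495 and 785. Grin3b reached 429 in glia-cultured GABAergic cell 5. At 0 reads per group the exact Poisson limit is 3.69 reads. This limit covers counting error only, so 0 reads do not show that a transcript was absent from the cells.

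The share of Grin2b in the summed reads of Grin2a and Grin2b could be set in 6 cells. It was 27.8 and 10.8% in glia-cultured GABAergic cells 3 and 5, which held both genes, and 100% in the other 4.

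Grik1 encodes the GluK1 subunit of kainate receptors, on chromosome 11, 27811955 to 28213542. No pyramidal cell had a read, and 8 of 16 GABAergic cells did. With glia, cells 3, 5 and 6 were at 236, 132 and 3367 and the other 3 at 0. Purified cells 1 to 5 were at 687, 0, 255, 3624 and 0. OCM-treated cell 2 was at 1758 and cell 3 at 2.44, with the other 3 at 0. Each GABAergic group therefore held cells with and without the transcript, and the highest level in each was carried by 1 cell.

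Of the 5 other kainate and delta receptor genes in the table, Grik2, which encodes GluK2, was above 0 in all 5 OCM-treated cells (1.74 to 1120), in 2 of 6 glia-cultured and 2 of 5 purified GABAergic cells and in 2 of 5 pyramidal cells. Grik4 was highest in pyramidal cell 1, at 2905.

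Grm5 encodes the metabotropic receptor mGluR5, on chromosome 1, 151218929 to 151783392. It was above 0 in 7 of 21 cells, spread over all groups: 19.96 and 1918 in pyramidal cells 4 and 5, 268 and 21.9 in glia-cultured GABAergic cells 2 and 5, 795 and 235 in purified cells 3 and 5, and 417 in OCM-treated cell 5. Its highest level was in a pyramidal cell and no group separated from another. Other metabotropic receptors were rarer. Of 7 genes, Grm3, Grm6 and Grm7 had 0 reads in every cell. Grm2, a presynaptic autoreceptor, stood at 5862 in pyramidal cell 2 and Grm8 at 2511 in OCM-treated cell 5, each in that cell only.

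Pyramidal neurons were first set beside GABAergic neurons of the same cultures with glia. Differences are of group means on the log2(normalized count + 1) scale, over genes above 0 in at least 3 of the cells compared, and a difference of 2 or more, a 4-fold change, was counted. Of 8 measured subunits 7 were lower in pyramidal cells past that threshold and 0 higher, where 50.6% of 6571 genes were lower and 7.47% higher. Gria3, Gria4, Grin2b and Grik1 had 0 pyramidal reads. They passed the filter through GABAergic cells alone and could only come out lower. The shares over all genes include such genes too. The largest differences were Gria4 at -9.96 and Gria3 at -8.28, below all but 0.320% and 1.86% of genes. Grin1 stood at -5.52, Gria1 at -4.71, Grik1 at -4.44, Gria2 at -4.25 and Grin2b at -4.25, and Grm5 at 0.96. The median over measured subunits was -4.58, or -5.11 with genes at 0 in a group set to their bound, beside -2.05 over all genes. Without pyramidal cells 3 and 4, 6 subunits stayed past the threshold with Gria4 at -9.96, while Gria1 came to -1.11. Bounds for the genes with 0 pyramidal reads took 3 reads in the group as the floor. Group means were at least 240-fold lower for Gria3, 176-fold for Grik1, 25.01-fold for Grin2b and 18.2-fold for Grin2a. These bounds cover counting error only, not the spread between cells, and Grin2a was above 0 in 2 of 6 glia-cultured GABAergic cells. No member separated the groups without overlap, which 1.84% of genes did as lower and 0.243% as higher.

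These values moved with the cells chosen. Over cells whose titles open with P, 3 a group, 5 of 6 measured subunits were lower past the threshold, beside 64.8% of genes, with Gria4 at -11.52. Over titles opening with S, 2 pyramidal cells beside 1 GABAergic cell, only Gria1, Gria2 and Grin1 could be measured. Of these 3, 1 was lower, beside 13.6% of genes, with Grin1 at -7.25, Gria1 at -0.42 and Gria2 at -0.35. The meaning of the title letters is not stated in the labels. With medians over cells instead of means, Gria2 was 0.48 higher in pyramidal cells.

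**Figure D4:**
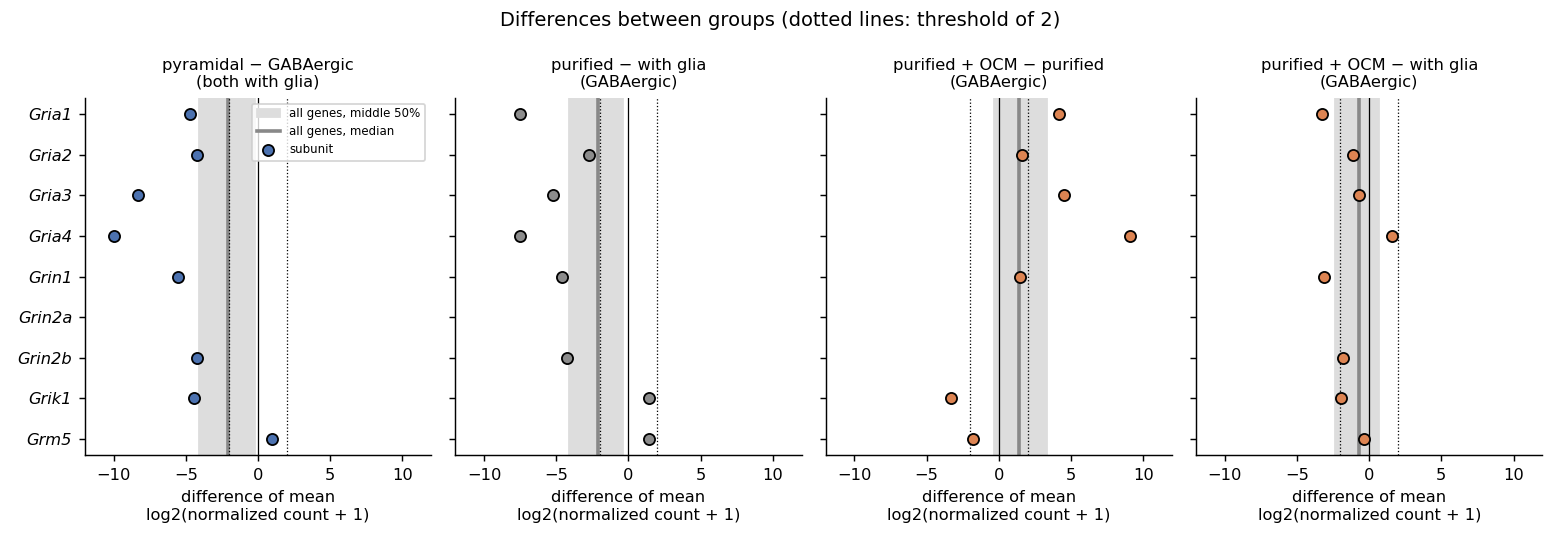
Difference of group means of log2(normalized count + 1) (x axis) for each measured subunit (y axis) in the 4 comparisons; grey bands and lines give the middle 50% and the median of all genes measured in the same comparison, and dotted lines the threshold of 2. Gria4 lies farthest from the grey line in the panels of pyramidal cells and of OCM against purified cells; panels share groups, and the GABAergic cells with glia enter 3 of the 4.

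The next comparison sets purified GABAergic neurons beside those with glia. Of 8 measured subunits, 6 were lower past the threshold and 0 higher, against 51.7% and 5.73% of 6302 genes. Grin2b had 0 purified reads, so it passed the filter through glia-cultured cells alone and could only come out lower. Gria4 stood at -7.50 and Gria1 at -7.49, with 2.41% and 2.44% of genes lower still. Gria3 was at -5.26, Grin1 at -4.61, Grin2b at -4.25 and Gria2 at -2.73. Without purified cell 4, which had no Gria2 read, Gria2 came to -0.52, short of the threshold. Grik1 and Grm5 were each 1.41 higher in purified cells, where 20.3% of all genes were higher at all. Without purified cell 4 Grik1 came to -0.09, and without purified cell 3 Grm5 came to -0.13. The median over subunits was -4.43 (-4.93 with bounds) and that over all genes -2.13. Gria1 was the 1 member with no overlap as lower, which 1.51% of genes showed, and 0.159% had no overlap as higher. With 3 reads in the purified group as the floor, its mean was at least 39.1-fold lower for Grin2a and 53.8-fold for Grin2b. These bounds cover counting error only, not the spread between cells, and Grin2a was above 0 in 2 of 6 glia-cultured cells. Within titles opening with S, 4 purified cells beside 1 glia-cultured cell, 4 of 4 measured subunits were lower, beside 46.7% of genes. That 1 cell has no Gria4, and Grik1 stood at -4.41 there. Within titles opening with P, 1 purified cell beside 3, 3 of 5 measured subunits were lower, beside 53.0% of genes, and Grin1 was 0.74 higher.

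Neuronal and subtype transcripts moved with this contrast as well, and their part in it was not tested. Snap25, a vesicle fusion gene of all neurons, was at 6340 to 14639 in purified cells and at 26926 to 44072 with glia, and the summed level of 8 pan-neuronal genes ran from 34555 to 84765 and from 60351 to 121454. Gad1 was at most 2930 in purified cells and at least 6011 with glia. Without overlap as lower were 2 of 8 measured pan-neuronal genes and 1 of 6 measured GABAergic genes, beside 1.51% of all genes. Gad2 and Slc32a1 overlapped: Gad2 was at 898 to 14087 purified and 6765 to 25558 with glia, and Slc32a1 at 390 to 1357 and 171 to 882. Past the threshold, 3 of 6 measured GABAergic and 4 of 8 pan-neuronal genes were lower and 0 higher, beside 51.7% of all genes lower. At any size, 6 of the 8 pan-neuronal genes were lower and 2 higher. Tubb3, of that list, overlapped, at 6558 to 17805 purified and 2716 to 16508 with glia. Of 7 measured interneuron subtype genes 4 were higher and 2 lower past the threshold in purified cells. Reln, which encodes the secreted protein reelin, was at 4608 or more in 4 of 5 purified cells, at 244 in cell 5, and at most 2399 with glia.

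The study's title concerns factors secreted by oligodendrocytes, which the comparison of OCM-treated with untreated purified GABAergic neurons addresses. Gria4 was 9.05 higher with OCM, above 99.7% of all genes measured, and its difference stayed at 8.44 to 11.07 when any 1 cell was left out. As a log2 ratio of group means it was 3.44, with nearly all of the purified mean carried by purified cell 3. Gria3 was 4.53 and Gria1 4.19 higher. Gria2 at 1.59 and Grin1 at 1.50 lay near the median of all genes, 1.40, and without purified cell 4 Gria2 came to -0.61. Grik1 was at -3.34, or -1.84 without purified cell 4, and Grm5 at -1.76. In all, 3 of 7 measured subunits were higher past the threshold and 1 was lower, against 39.3% and 10.1% of 5143 genes, so the counts alone do not set the subunits apart from genes in general. None separated the groups without overlap, as 0.817% of genes did as higher and 0.233% as lower. Among cells with titles opening with S, 5 beside 4, 4 of 6 measured subunits were higher and 1 lower, beside 39.1% and 12.3% of genes, with Gria4 at 8.44.

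Interneuron subtype transcripts moved with this contrast, and their part in it was not tested. Npy was at 7270 or more in all 5 OCM-treated cells and at 0 in purified cells 1, 2 and 4, while Cck, at 0 in every OCM-treated cell, reached 19464 in purified cell 1 and 28143 in purified cell 2. Sst was at 966 to 325053 in OCM-treated cells. Purified cell 5 had Sst at 243977, Npy at 185668 and no Gria4 read. Purified cell 3, high in Gria4, had Npy at 3964 and Sst at 0. Microglial, astrocyte and oligodendrocyte genes summed to at most 8.22, 1538 and 857 in a purified cell and to at most 0.509, 1226 and 9.16 in an OCM-treated one. Mbp, a defining myelin gene, was at 0 in all purified cells and had 6 reads in 1 OCM-treated cell.

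OCM-treated cells were also compared with GABAergic cells grown with glia, a contrast that includes the antimitotic agents. It shares cells with the comparisons before it. Of 8 measured subunits 0 were higher and 2 lower past the threshold, against 11% and 30.4% of 6772 genes. Those 2 were Gria1 at -3.30 and Grin1 at -3.10. Gria4 was 1.56 higher, set by glia-cultured cell 6, without which it was at -0.44. The median over subunits was -1.46, beside -0.72 over all genes. No member lacked overlap, which 0.177% of genes did as higher and 0.517% as lower. Titles opening with S leave 1 glia-cultured cell, and against it 6 of 7 measured subunits were lower, beside 37.2% of genes, and Gria4 was 11.52 higher. Counts of lower subunits ran from 0 to 4 when any 1 cell was left out, with 0 when OCM-treated cell 3 was.

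Partners of these receptors were followed in lists of auxiliary subunits and of scaffold and trafficking genes. Of 12 measured auxiliary genes 5 were lower and 1 higher in pyramidal than in glia-cultured GABAergic cells, beside 50.6% and 7.47% of all genes (median -0.83, and -2.05 over all genes). Neto1, an auxiliary subunit that binds kainate and NMDA receptors, was the 1 gene of this list without overlap, beside 1.84% of all genes as lower (plot of partner genes). It was at 2.96, 0, 0, 0 and 0 in pyramidal cells and at 701 or more in every glia-cultured GABAergic cell, a difference of -10.59 without overlap. Purified cells ran from 200 to 1955 and OCM-treated cells from 66.7 to 1288, so all 16 GABAergic cells lay above all 5 pyramidal cells. Nptx1, a pentraxin that clusters AMPA receptors, was the 1 auxiliary gene higher in pyramidal cells past the threshold, by 4.45.

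Of 14 measured scaffold and trafficking genes, 3 were lower in purified than in glia-cultured GABAergic cells without overlap, beside 1.51% of all genes. Dlg3, which encodes SAP102, was at 143 to 1718 with glia, had 0 reads in all 5 purified cells and stood at 32.6 to 1542 in the 5 OCM-treated cells. Nsf, an ATPase that binds GluA2, was at 1290 to 3605 with glia and at 0, 492, 776, 0 and 0 in purified cells. Dlg2, which encodes PSD-93, was at 127 or more with glia, at 41.0 in 1 purified cell and at 0 in the other 4. It was at 1.02 in 1 OCM-treated cell and at 0 in the other 4, unlike Dlg3. Of 14 measured genes in this list 9 were lower and 1 higher in purified cells, beside 51.7% and 5.73% of all genes (median -2.67, or -3.48 with bounds, and -2.13 over all genes). With OCM against purified, 6 of 10 were higher and 0 lower, beside 39.3% and 10.1% of all genes (median 2.37, or 3.22 with bounds, and 1.40 over all genes). Dlg3 was the 1 with no overlap, which 0.817% of all genes showed as higher. With 0 purified reads, Dlg3 passed the filter here through OCM-treated cells alone and could only come out higher. Against glia-cultured cells it likewise could only come out lower in purified cells. The shares over all genes include such genes too. Against glia-cultured cells, 4 of 13 were lower and 1 higher in OCM-treated cells, beside 30.4% and 11% of all genes (median -1.04, and -0.72 over all genes).

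**Figure D5:**
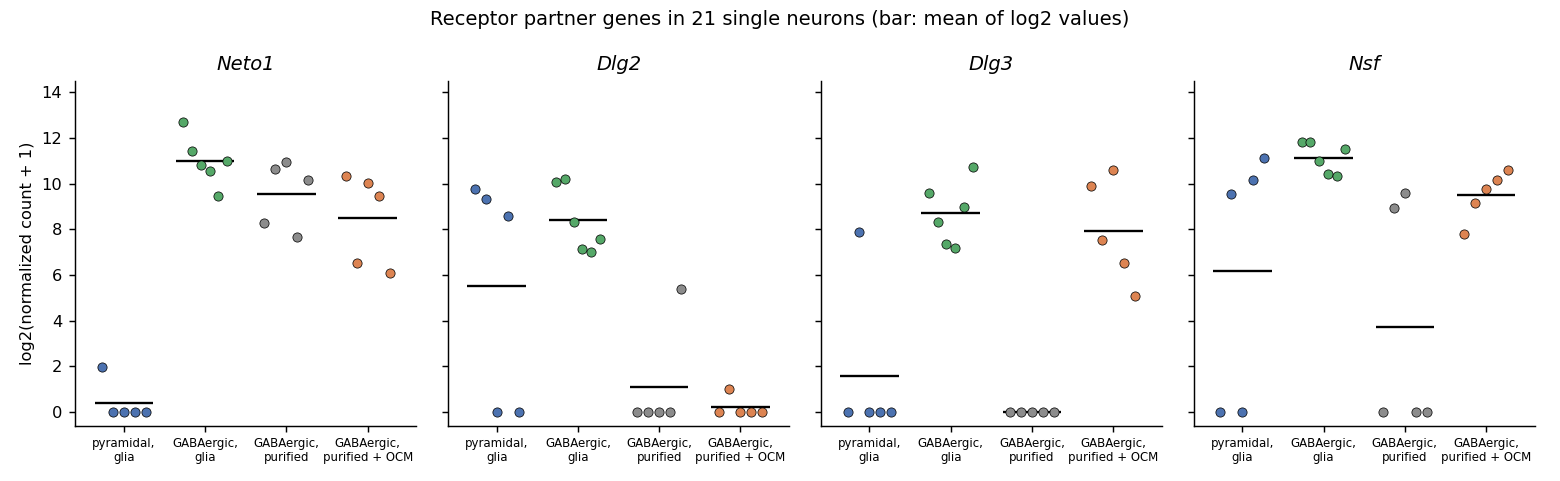
Levels of Neto1, Dlg2, Dlg3 and Nsf on the log2(normalized count + 1) scale (y axis) in each cell of the 4 groups (x axis); points are cells and bars the means of the log2 values. Neto1 is at 66.7 or more in all 16 GABAergic cells and at most 2.96 in pyramidal cells, and Dlg3 is at 0 in all purified cells.

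For the 5 subunits above 0 in at least 11 of 21 cells, the genes with the most similar levels over the 21 cells were listed among 2921 candidates. The cells share group and depth differences, so the values are descriptions of these cells. Gria4 was most like Gad1 (Spearman rho 0.84) and Csdc2 (0.82). Gria3 was most like Gad2 (0.81) and Ppp2r2c (0.81). Gria1 was most like Snap25, a vesicle fusion gene (0.82), and Cx3cl1 (0.81). Gria2 was most like Vopp1 (0.79) and Dnajc5 (0.73), and Grin1 like Plcb1 (0.79) and Ctnna2 (0.75). Among the members themselves, Gria1 and Grin1 ranked the 16 GABAergic cells most alike (rho 0.80), and the 12 GABAergic cells with Gria1 all had Grin1. Gria4 and Grik1 had the lowest rho, -0.49.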

How the data were processed

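Per the labels' protocols, single aspirated neurons went through SMART-Seq v4 amplification and Nextera XT library preparation before NextSeq500 sequencing. The submitters' processing notes name the build rn6 and, as tools, DESeq2, SAMtools, Picard, FastQC and STAR 2.4.0. For the read counter, the annotation and strandedness, nothing is given in the sources used here, so overlapping antisense genes cannot be told apart. The authors deposited a signal for each gene: read counts divided by DESeq2 size factors. Dividing by the value of 1 read in that cell returned whole reads for 100% of values, within 0.05. No count model was fitted to them, as cells would have stood in for replicates.

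Of 34976 rows 18376 had no symbol, and 0 columns lacked a sample. For repeated symbols the row with the highest mean was kept. Group means of log2(value + 1) were subtracted over genes above 0 in at least 3 cells of a comparison. The protein table that would have given coding lengths was not used here, so shares stand without length correction. Groups follow the labels, and cells are numbered within a group in accession order. Members and gene lists were chosen with earlier results of these data known. The text names the 9 members, list genes past the threshold without overlap (or, failing that, the largest differences), and the 2 genes most like each member by Spearman rho (mean of at least 50). Other list genes are named besides, chosen after their values were seen. Scripts were tested on simulated data. Software was matplotlib 3.10.9, scipy 1.17.1, pandas 2.3.3, numpy 2.4.6 and Python 3.11.15.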

Additional observations from a re-analysis of the deposited data

Results flagged for a closer look

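Of 32 sets of cells tested, a subunit or the Gria2 share in a group, 7 had a cell far from the others by Dixon's criterion on the log2 scale. Chance alone would flag about 1 in 20, and a cell with 0 reads, or the only one with reads, is easily flagged. Low outlying cells were glia-cultured GABAergic cell 4 for Gria1 (151) and Gria3 (0), glia-cultured GABAergic cell 6 for Gria4 (0) and purified cell 4 for Gria2 (0). High ones were purified cell 3 for Gria4 (1489), OCM-treated cell 2 for Grik1 (1758) and OCM-treated cell 5 for Grm5 (417).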

How the results depend on the processing

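Each count of subunits past the threshold was recomputed under other settings. For pyramidal against GABAergic cells with glia (0 higher, 7 lower), the ratio of group means gave 1 higher, titles opening with P 1 higher and titles opening with S 1 lower. For purified against glia-cultured cells (0 and 6), the ratio of means gave 1 higher and 3 lower, the median over cells 1 higher, a threshold of 1 gave 2 higher, and titles opening with P 3 lower. For OCM-treated against purified cells (3 and 1), a pseudocount of 0.1 and a threshold of 1 each gave 5 higher and 2 lower, one upper quartile 5 higher, and the ratio of means 0 lower. For OCM-treated against glia-cultured cells (0 and 2), a pseudocount of 0.1 gave 1 higher and 4 lower, one upper quartile 4 lower, the ratio of means 0 lower, a threshold of 1 gave 1 higher and 5 lower, and titles opening with S 1 higher and 6 lower. The ratio of group means moved the median of all genes from -2.05 to -0.32, -2.13 to -0.47, 1.40 to 0.07 and -0.72 to -0.34, in the same order, and one upper quartile to -2.60, -2.58, 1.82 and -0.80. The cause was not tested.

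Leaving out 1 cell gave 0 to 1 higher and 6 to 7 lower, 0 to 2 higher and 5 to 6 lower, 3 to 5 higher and 1 to 2 lower, and 0 to 1 higher and 0 to 4 lower, in the same order. The cells that moved a count by over 1.5 times were glia-cultured GABAergic cells 1, 2, 3, 4 and 6, purified cells 1, 2, 4 and 5, and OCM-treated cells 2 and 3. The mean Gria2 share ran from 54.5 to 87.9% in pyramidal, 31.7 to 43.2% in glia-cultured, 64.3 to 89.1% in purified and 22.1 to 32.1% in OCM-treated cells, and the Grin2b share from 46.2 to 76.0% in glia-cultured cells. Of the 38 recomputed shares, 26 left out 1 cell. Such a step cannot move a mean by more than 1 SD between cells, so it is no check of stability. The other 12 also moved by no more than 1 SD, which is wide here.

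Of the recomputed differences of single subunits, 2 changed sign after passing the threshold: Gria2 in pyramidal cells was 0.48 higher with the median over cells, and Grin1 in purified cells was 0.74 higher within titles opening with P. The title P setting was chosen after seeing the data. Shares per coding length were not run. No paired analysis was possible because the labels give cells no shared replicate numbers.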
